A study of Mus musculus with 16 samples.

Results

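Hepatokines are proteins that the liver releases into the blood and that act on other organs. The data on 9 of them, Fgf21, Gdf15, Angptl4, Angptl8, Inhbe, Fst, Ahsg, Fetub and Lect2, are described here. They were taken by name, as liver-secreted signalling proteins, from the 55487 genes measured in liver RNA of 16 mice. All mice were male C57BL6/J, aged 10 weeks at the start by the sample records, and had eaten a diet with 60% of its energy from fat for 8 weeks. They then received vehicle or G108, a long-acting agonist of the glucagon receptor, at 2.5 nmol/kg under the skin each day for 22 days, while the high-fat food held either a standard (SP) or a high (HP) share of protein. By the study's methods, the SP or HP food was begun some weeks before the treatment. Each of the 4 combinations (vehicle SP, G108 SP, vehicle HP and G108 HP) had 4 mice, and each mouse gave 1 library. Livers were collected on day 25 after a 4 h fast, and the study's methods give another age, lead-in and final day than the sample records. No mouse was on a normal diet, so every comparison is between obese animals.

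Glucagon acts on hepatocytes through cAMP, raising glucose production, amino acid breakdown and fatty acid oxidation. Several hepatokines are tied to the same states: Fgf21 is induced in fasting and amino acid shortage and signals through Fgfr1 with the co-receptor beta-Klotho (Klb), and Gdf15 is a stress hormone that lowers food intake through Gfral in the hindbrain. Angptl4 and Angptl8 restrain lipoprotein lipase, the enzyme that clears triglyceride from blood, with Angptl4 typical of fasting and Angptl8 of feeding. Inhbe encodes the subunit of activin E, and Fst encodes follistatin, which binds and blocks activins and myostatin. Ahsg and Fetub encode the fetuins A and B, abundant plasma glycoproteins. Lect2 encodes a plasma protein that binds the receptors Met and Tie1.

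The 250 bases before the transcription start were read for 7 of the 9 genes (9 windows, RefSeq, GRCm38.p6), with Fst and Angptl4 not analysed here. Windows were searched on both strands for the stress element TGATGNAA, the cAMP element TGACGTCA and its 5-base part TGACG, the E-box CACGTG, the FOXO element GTAAACA and the nuclear receptor half-site AGGTCA. TGATGNAA was in the windows of Fgf21, Angptl8 and Inhbe and in 3.45% of all 32851 windows. TGACG was in those of Fgf21 and Fetub (17.8% of all), CACGTG in those of Fgf21 and Gdf15 (6.02%), GTAAACA in that of Fetub (3.17%) and AGGTCA in that of Gdf15 (14%). TGACGTCA, found in 1.55% of all windows and containing TGACG, was in 0 of the 9. Ahsg and Lect2 held none of the motifs searched. The windows of Fgf21, Angptl8 and Fetub are shown because they hold 6 of the 9 matches and lie outside annotated exons. Capitals mark the matches, which read as the reverse complement where the element lies on the other strand.
Fgf21, chr7:45615491-45615740, minus strand: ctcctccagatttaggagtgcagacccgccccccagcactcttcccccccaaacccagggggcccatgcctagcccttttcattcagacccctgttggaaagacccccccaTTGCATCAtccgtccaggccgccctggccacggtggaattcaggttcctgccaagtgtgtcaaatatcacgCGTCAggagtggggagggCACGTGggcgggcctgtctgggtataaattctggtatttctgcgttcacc
Angptl8, chr9:21835260-21835509, plus strand: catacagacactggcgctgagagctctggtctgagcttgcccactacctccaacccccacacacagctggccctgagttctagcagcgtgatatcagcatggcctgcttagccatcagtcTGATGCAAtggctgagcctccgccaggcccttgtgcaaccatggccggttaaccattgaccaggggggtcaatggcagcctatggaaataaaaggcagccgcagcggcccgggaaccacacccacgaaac
Fetub, second start, chr16:22919972-22920221, plus strand: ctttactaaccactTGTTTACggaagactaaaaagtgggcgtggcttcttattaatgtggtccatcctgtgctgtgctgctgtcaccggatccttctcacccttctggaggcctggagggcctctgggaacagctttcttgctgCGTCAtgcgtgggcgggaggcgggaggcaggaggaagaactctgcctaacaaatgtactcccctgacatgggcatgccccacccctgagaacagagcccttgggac
The stress element starts 139 bases before the Fgf21 start and 130 bases before the Angptl8 start, and 181 bases before that of Inhbe, whose window lies in an exon of the GENCODE model.

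Values are TPM, a transcript's share of its library: reads are divided by exon length and scaled to the same total in every library, so transcripts gain TPM when very abundant ones decline. Libraries held 27.8 to 45.03 M assigned reads. Transcripts of the Major urinary protein (Mup) genes took a mean of 45.7% of TPM in vehicle SP, 39.9% in vehicle HP, 21.0% in G108 SP and 24.4% in G108 HP. The median log2 fold change of the 11839 genes tested (mean TPM 1 or more) was 0.60 for G108 against vehicle on SP, 0.09 on HP and 0.35 averaged over the diets. Results on the hepatokines are therefore given also after scaling by the median of ratios, which puts the middle gene of every library level and brings these medians to between -0.01 and 0.01. Mitochondrial transcripts took a mean of 17.5% of TPM in vehicle SP, 17.8% in vehicle HP, 18.9% in G108 SP and 26.7% in G108 HP, with 37.3% in G108 HP 3 and 24.0% in vehicle SP 4. G108 HP 3 held the lowest Angptl4 and the highest scaled Fst of the 16 libraries, and vehicle SP 4 the lowest Ahsg and Fgf21, and the part of this share in the results was not tested. The scaled averages of Fst and Angptl4 were called with each of the 16 libraries left out, G108 HP 3 and vehicle SP 4 included. Genes were not filtered anew in these fits, and Fst reached a mean TPM of 1 only through its values with G108. All 11 hepatocyte markers measured were over 1 TPM, with a summed level between 31650 and 76400 TPM per library (rounded to 4 digits). Markers of adipocytes and of skeletal muscle, other sources of Angptl4 and Fst, summed to at most 1.99 and 1.41 TPM, with Lep and Myh1 at 0 in 16 of 16 libraries. In whole liver, more cells of a type and more RNA per cell cannot be told apart.

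Levels of the 9 transcripts, already per unit length, spanned 3 orders of magnitude. Ahsg had a mean of 1801 TPM over the 16 libraries, rank 68 among the genes tested, Fetub had 192, Lect2 123 and Angptl8 120. Angptl4 followed at 13.1, Inhbe at 10.5, Gdf15 at 4.87, Fgf21 at 2.82 and Fst at 1.30 TPM. The order of Lect2 and Angptl8, and that of Angptl4 and Inhbe, held in 11 of 16 libraries and was within their spread, whereas each other neighbouring pair kept its order in at least 15. Mice of a group differed most in Fgf21 (SD of log2 TPM within groups 0.92), Gdf15 (0.71) and Angptl8 (0.64) and least in Fetub (0.16) and Lect2 (0.19). Counting error was well below this spread for each: the lowest Fgf21 library held 16 reads (95% Poisson interval 9.15 to 26.0) and the lowest Fst library 42 reads. All 9 genes passed the filter on a mean TPM of 1, Fst only through its values with G108.

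**Figure D1:**
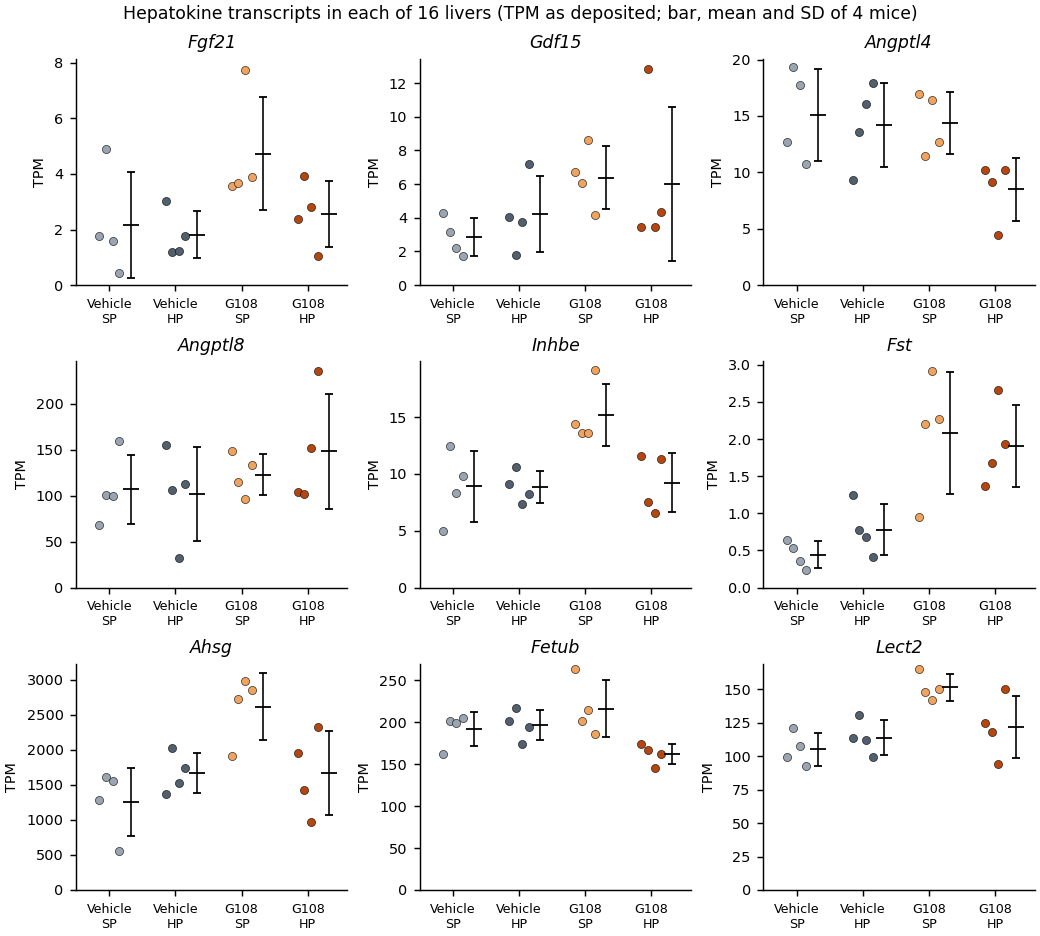
Each panel plots the TPM of 1 transcript (vertical axis, linear from 0) in each mouse of the 4 groups, with the group mean and SD beside the points. Fst is higher in every G108 library than in the vehicle libraries of the same diet, while Fgf21 and Angptl8 overlap on both diets.

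Of the 9 hepatokines, 6 were called higher in TPM with G108 on SP (Ahsg, Fgf21, Fst, Gdf15, Inhbe and Lect2) while on HP 0 were (2 at an unadjusted p under 0.05). In limma's test 77.6% of all genes were called on SP, 1.11% on HP and 62.0% averaged over the diets, where the same 6 were called. The median log2 fold change of the 9 on SP was 0.75, against 0.60 for all genes. After scaling, 2.72% of all genes were called on SP, 1.22% on HP and 5.81% on average over the diets. The hepatokines called then numbered 0 on SP, 0 on HP (3 unadjusted on each) and 3 averaged over the diets: Fst was higher and Angptl4 and Fetub were lower. Fst was called higher on average on both scales, having passed the filter through the G108 values. Without any filter its TPM values were also called (adjusted p = 0.00305 on SP and 0.00162 on average). In that fit of 32076 genes, 32.7% were called on SP and 21.8% on average. The scaled values were not fitted without a filter.

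**Figure D2:**
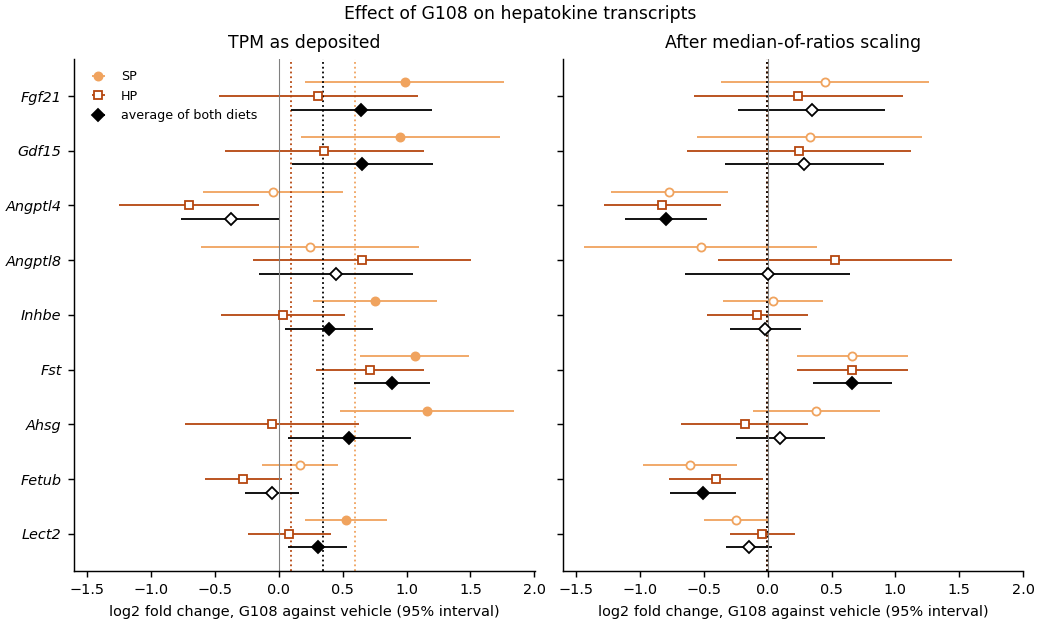
Points are log2 fold changes of G108 against vehicle (horizontal axis) for each hepatokine (vertical axis) with 95% intervals, from TPM as deposited (left) and after scaling (right); filled points passed an adjusted p of 0.05 and dotted lines are the medians of all genes. On SP before scaling 8 of 9 lie to the right of 0, and 3 average effects are filled after it.

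Fst, the activin antagonist, rose with G108. Its TPM were 0.64, 0.53, 0.36 and 0.23 in vehicle SP and 0.95, 2.21, 2.91 and 2.27 in G108 SP. On HP they were 1.24, 0.77, 0.68 and 0.42 with vehicle and 1.37, 1.68, 2.66 and 1.93 with G108. On each diet every G108 library was above every vehicle library, and G108 SP 1 was the lowest of the 8 treated. The ratio of group means was 4.72 on SP and 2.46 on HP in TPM, and 2.66 and 2.28 after scaling, when the groups overlapped on both diets. The log2 fold change on SP was 1.06 (SE 0.20, adjusted p = 0.00101), that on HP 0.71 (SE 0.20, adjusted p = 0.116) and the average 0.89 (SE 0.14, adjusted p = 4.51e-04). Scaled, it was 0.66 (SE 0.14, adjusted p = 0.0127) on average and 0.66 on each diet (adjusted p = 0.107 for SP, 0.166 for HP). These values are on log2(TPM + 1), which understates change at so low a level. limma's voom on the recovered reads gave 1.34 on average (SE 0.28, adjusted p = 0.00716). The scaled and voom fits used the filter on mean TPM, which Fst passed only through its values with G108. The interaction with diet after scaling was 0.00 with a 95% interval of -0.62 to 0.61. Fst (chr13:114452290-114458951, minus strand, ENSMUSG00000021765) shares 2.51% of its exon length with the antisense gene Gm47040, and the strandedness of the counting is not given in the sources used here.

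Angptl4, the fasting-linked lipase inhibitor, fell relative to other genes. In TPM it was 12.7, 19.3, 17.8 and 10.7 in vehicle SP, 17.0, 11.4, 16.5 and 12.7 in G108 SP, 9.28, 13.6, 16.1 and 17.9 in vehicle HP and 10.3, 9.14, 4.41 and 10.2 in G108 HP. The deposited TPM thus overlapped on both diets, with log2 fold changes of -0.05 on SP and -0.70 on HP (adjusted p = 0.864 and 0.260). After scaling, its levels were 18.2, 20, 19.9 and 15.7 against 14.4, 8.61, 10.7 and 8.65 on SP. On HP they were 11.1, 12.7, 17.6 and 20.4 against 9.98, 9.65, 5.24 and 8.21. Scaled, all G108 libraries lay below all vehicle libraries of the same diet, with ratios of means of 0.574 on SP and 0.535 on HP. The scaled log2 fold change was -0.80 averaged over the diets (SE 0.15, adjusted p = 0.00484) and -0.77 and -0.82 on SP and HP (adjusted p = 0.0756 and 0.0901). The 2 diets gave nearly equal values (interaction -0.05, 95% interval -0.70 to 0.59). The average was called with each library left out in turn, between -0.87 and -0.71. On SP its TPM hardly moved while the typical gene moved by 0.60. Its gene is at chr17:33773750-33781830, minus strand (ENSMUSG00000002289).

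Angptl8, its feeding-linked relative, was not called in the main test. With array quality weights it was called higher on HP (1.46, adjusted p = 0.0201) and on average (0.86, adjusted p = 0.0183). In that setting 17.96% of all genes were called on HP and 74.9% on average. Its TPM were 68.5, 101, 99.3 and 159 in vehicle SP and 148, 114, 95.8 and 133 in G108 SP, and 155, 106, 32.6 and 112 in vehicle HP and 104, 101, 151 and 236 in G108 HP. The 4 groups overlapped, and the scaled average difference was 0.00 on the log2 scale with a 95% interval of -0.65 to 0.65. The interval is too wide to call the levels equal. On the scaled values the diets pointed opposite ways (-0.53 on SP, 0.53 on HP), with an interaction of 1.05 (SE 0.61, adjusted p = 0.575). Without vehicle HP 3, the lowest library, the scaled value was 0.06 on HP and 0.58 for the interaction. Within libraries, Angptl8 exceeded Angptl4 by a median of 5.50 times in vehicle SP, 7.05 in vehicle HP, 9.37 in G108 SP and 17.1 in G108 HP. These ratios need no scaling between libraries, but their ranges overlapped between groups on each diet. Angptl8 (chr9:21835510-21837347, plus strand, ENSMUSG00000047822) lies inside Dock6 on the other strand, with no shared exon bases.

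**Figure D3:**
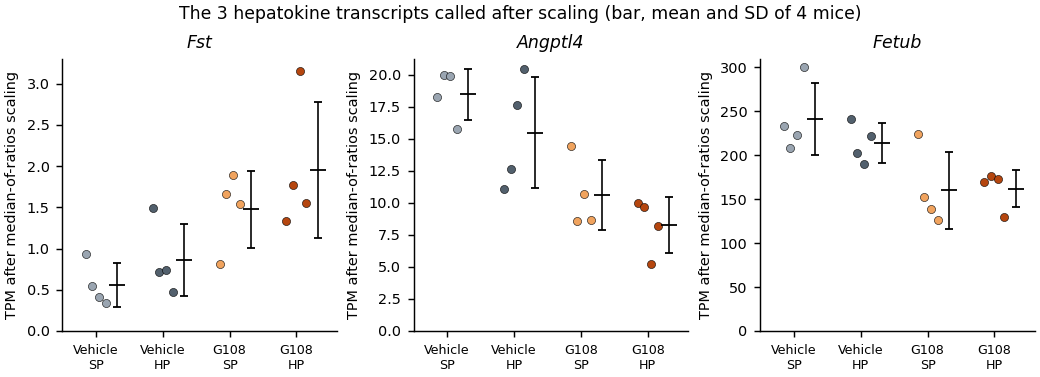
TPM after median-of-ratios scaling (vertical axis, linear from 0) are plotted for each mouse of the 4 groups, with mean and SD. Angptl4 is lower in every G108 library than in the vehicle libraries of the same diet, Fetub on HP only, and Fst overlaps through 1 mouse in G108 SP and 1 in vehicle HP.

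Fgf21 and Gdf15, the metabolic stress hormones, were called higher in TPM on SP but with values that differed widely between mice. Fgf21 was 1.75, 4.89, 1.60 and 0.43 TPM in vehicle SP and 3.58, 3.69, 7.76 and 3.90 in G108 SP. It was 3.04, 1.21, 1.24 and 1.78 in vehicle HP and 2.39, 3.93, 2.81 and 1.05 in G108 HP. Vehicle SP 2 exceeded 3 of the 4 treated mice on its diet, and the HP groups overlapped throughout. The log2 fold change of Fgf21 on SP was 0.98 (SE 0.37, adjusted p = 0.0239) in TPM and 0.45 (SE 0.38, adjusted p = 0.525) after scaling, and its scaled average over the diets was 0.34 with a 95% interval of -0.23 to 0.92. The call on SP was lost without G108 SP 3 or without vehicle SP 4. Gdf15 was 4.30, 3.19, 2.21 and 1.74 TPM in vehicle SP and 6.71, 6.05, 8.64 and 4.17 in G108 SP, so only the lowest treated and the highest control crossed. On HP it was 4.07, 1.78, 3.75 and 7.23 with vehicle and 3.45, 12.9, 3.48 and 4.35 with G108, where 1 mouse carried the group mean. Its log2 fold change on SP was 0.95 (SE 0.37, adjusted p = 0.0283) in TPM and 0.33 (adjusted p = 0.673) after scaling, with a scaled average of 0.29 (95% interval -0.33 to 0.91). That call was lost without any of G108 SP 1, G108 SP 3, vehicle SP 3 or vehicle SP 4. The genes are at chr7:45613886-45615490 (Fgf21, minus strand, ENSMUSG00000030827) and chr8:70629393-70632456 (Gdf15, minus strand, ENSMUSG00000038508).

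Inhbe, the activin E subunit, was 5.01, 12.4, 8.32 and 9.84 TPM in vehicle SP and 14.4, 13.6, 13.6 and 19.2 in G108 SP, with no overlap. On HP it was 9.14, 10.6, 7.32 and 8.27 with vehicle and 11.5, 7.51, 6.55 and 11.3 with G108. The log2 fold change of 0.75 on SP (SE 0.23, adjusted p = 0.00902) was near the shift of all genes, and after scaling it was 0.04 (95% interval -0.35 to 0.44). The scaled average over the diets was -0.02 (95% interval -0.30 to 0.26). The ratio of Fst to Inhbe within libraries had a median of 0.0430 in vehicle SP, 0.0826 in vehicle HP, 0.141 in G108 SP and 0.197 in G108 HP, with ranges that overlapped between treatments on both diets. Inhbe (chr10:127348857-127354411, minus strand, ENSMUSG00000047492) lies wholly within the antisense gene Gm47200, which had a mean of 16.3 TPM and shares no exon bases with it.

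The fetuins, neighbours on chromosome 16 with 18.9 kb between them, did not move together. Fetub was 162, 201, 199 and 205 TPM in vehicle SP and 264, 202, 214 and 186 in G108 SP, which overlapped. On HP it was 201, 217, 174 and 195 with vehicle and 174, 167, 145 and 162 with G108, where every treated mouse was lower. The closest libraries nearly met, with 173.6 TPM in G108 HP 1 and 173.9 in vehicle HP 3. After scaling it was called lower averaged over the diets (log2 fold change -0.51, SE 0.12, adjusted p = 0.0237), with -0.61 on SP and -0.40 on HP (adjusted p = 0.0822 and 0.377), and voom on the recovered reads gave -0.51 (adjusted p = 0.0194). The scaled average was called with 11 of 16 libraries left out in turn and lost without G108 HP 4, G108 SP 2, G108 SP 3, G108 SP 4 or vehicle HP 4. Ahsg was 1281, 1612, 1558 and 554 TPM in vehicle SP and 1910, 2725, 2982 and 2850 in G108 SP, and 1365, 2028, 1524 and 1743 in vehicle HP and 1957, 1428, 970 and 2329 in G108 HP. On SP every treated mouse was above every control, by a log2 fold change of 1.16 (SE 0.32, adjusted p = 0.00559). After scaling this was 0.38 (SE 0.23, adjusted p = 0.397), and the average over the diets was 0.10 (95% interval -0.25 to 0.45). The low value of vehicle SP 4 bears on it: without that library the scaled value on SP was 0.10. Within libraries Ahsg exceeded Fetub by a median of 7.86 times in vehicle SP, 8.86 in vehicle HP, 13.7 in G108 SP and 9.92 in G108 HP, and these ranges overlapped between treatments on both diets. Ahsg (chr16:22891277-22899449, plus strand, ENSMUSG00000022868) shares 2.82% of its exon length with the antisense gene Gm30505, which had a mean of 453 TPM. Fetub is at chr16:22918334-22939778, plus strand (ENSMUSG00000022871).

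Lect2 was 99.6, 121, 107 and 92.7 TPM in vehicle SP and 165, 148, 142 and 150 in G108 SP, with all treated mice above all controls. On HP it was 114, 131, 112 and 99.4 with vehicle and 125, 118, 93.8 and 150 with G108, which overlapped. Its log2 fold change on SP, 0.53 (SE 0.15, adjusted p = 0.00706), was below the 0.60 of the typical gene and turned to -0.25 after scaling (SE 0.12, adjusted p = 0.297). The average over the diets likewise went from 0.30 (adjusted p = 0.0264) to -0.14 (adjusted p = 0.432). Lect2 is at chr13:56542464-56548502, minus strand (ENSMUSG00000021539).

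Counts of groups without overlap showed the same dependence on scale. In TPM, every G108 library was above every vehicle library for 4 of 9 on SP (Fst, Inhbe, Ahsg and Lect2), against 56.0% of all genes, and for 1 on HP (Fst), against 7.67%. The reverse held for 0 on SP (0.355% of all genes) and for 1 on HP (Fetub, 1.21%). After scaling, 0 were above on SP (4.52%) and 0 on HP (4.20% of all genes), while 1 was below on SP (Angptl4, 4.69%) and 2 on HP (Angptl4 and Fetub, 3.95%).

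High protein was compared with standard protein to see whether it altered these transcripts, and 0 of 9 were called with G108, 0 with vehicle and 0 for the interaction of G108 and diet. limma called 0.00% of all genes in each of the 3, both in TPM and after scaling (0.00%). In TPM with G108, 5 of the 9 had an unadjusted p under 0.05 (Ahsg, Angptl4, Fetub, Inhbe and Lect2, all lower on HP), as did 5325 of the 11839 genes tested, with a median of -0.41 over the 9 and -0.35 over all genes. After scaling 0 of 9 had an unadjusted p under 0.05 in either diet comparison or in the interaction. For the interaction in TPM 3 had one (Ahsg, Fetub and Inhbe), as did 5685 of all genes. The scaled difference between diets with G108 was 0.24 for Fst (95% interval -0.20 to 0.67), -0.33 for Angptl4 (95% interval -0.78 to 0.13) and 0.04 for Fetub (95% interval -0.33 to 0.41), so a moderate effect of diet on them was not resolved.

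Receptors and binding partners of these proteins, as measured in liver, were called in 0 cases higher and 2 lower of 11 tested from a list of 18, averaged over the diets after scaling. Acvr1b, a type I activin receptor, fell by 0.36 (adjusted p = 0.00882) and Met, the hepatocyte growth factor receptor that Lect2 binds, fell by 0.32 (adjusted p = 0.0492). The median of this list was -0.14, against 0.00 for all genes. In TPM 4 were called higher and 0 lower (median 0.21, all genes 0.35). Of all genes, 5.81% were called on this average after scaling and 62.0% in TPM. Among those not called after scaling were the FGF receptor Fgfr3 (-0.39, adjusted p = 0.286), the activin receptor Acvr1 (-0.18, adjusted p = 0.0586) and Klb, the co-receptor of Fgf21 (-0.10, adjusted p = 0.804). Of 19 regulators tested from 20, Ppargc1a, a coactivator induced by cAMP in fasting, rose (0.77, adjusted p = 2.46e-04) and was also called higher on each diet alone. It passed the filter only through G108, with means of 3.56 (SP) and 2.18 (HP) TPM against 0.74 and 0.91 with vehicle. Trib3, a pseudokinase of the stress response, fell by 0.74 (adjusted p = 0.0188). The stress transcription factor Atf5 (0.52, adjusted p = 0.223) and Mlxipl, the carbohydrate-responsive factor ChREBP (-0.49, adjusted p = 0.204), were not called. Atf4, a stress transcription factor that acts on Fgf21, had 0.15 (adjusted p = 0.625), and Ppara, the fasting receptor of fatty acids, -0.17 (adjusted p = 0.652). The median over the regulators was -0.03. In TPM 9 of them were called higher and 1 lower, with a median of 0.33. Of all 11839 genes, 7216 were called higher and 119 lower in that comparison.

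Among 26 other secreted liver factors tested from 35, 1 rose and 3 fell after scaling, with a median of -0.10 (all genes -0.004, 5.81% called). In TPM 11 were called higher and 1 lower, with a median of 0.31 (all genes 0.35, 62.0% called). Serpina12, which encodes vaspin, fell from a mean of 14.8 to 6.82 TPM on SP and from 8.20 to 2.65 on HP. Its scaled log2 fold change on SP was -1.63 (adjusted p = 0.00124), that on HP was -1.47 (adjusted p = 0.0107), and it was called lower in TPM on both diets as well. Igfbp1, a cAMP-induced and insulin-repressed binder of insulin-like growth factors, rose by 0.99 (adjusted p = 0.00192). Hfe2, the hemojuvelin of iron sensing, fell by 0.74 (adjusted p = 0.00783) and Orm1, an acute phase protein, by 0.60 (adjusted p = 0.0144).

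The lists of companion genes showed mixed directions on the scaled average over the diets. Of all genes, 5.81% were called on that average and 62.0% on the average in TPM, with medians of -0.004 and 0.35. Of 11 PPAR alpha and fasting genes tested from 12, Vnn1, a pantetheinase, fell by 1.19 (adjusted p = 0.0142) and the other 10 were not called, including the fatty acid binder Fabp1 (-0.39, adjusted p = 0.127), Cyp4a14 (0.73, adjusted p = 0.387) and Cyp4a10 (-0.49, adjusted p = 0.527), both fatty acid hydroxylases. The median of that list was -0.07 on average, 0.19 on SP and -0.25 on HP. Its interaction with diet had a median of -0.66, against 0.01 for all genes, with 0 called. In TPM 4 of its genes were called higher and 1 lower on average (median 0.38). Of 7 integrated stress genes tested from 15, Cth of cysteine synthesis rose by 0.99 (adjusted p = 0.0174), and Trib3 and Chac1, a glutathione-degrading enzyme, fell (Chac1 by 0.75, adjusted p = 0.0419), with a list median of 0.14. In TPM 4 of the 7 were called higher and 2 lower (median 0.45). Chac1 passed the filter only through vehicle, with means of 1.49 (SP) and 1.71 (HP) TPM against 0.97 and 0.46 with G108. Asns, Psat1, Phgdh and 5 other stress genes had a mean under 1 TPM and were not tested. Each of them had a higher mean TPM with G108 than with vehicle on both diets. Asns had 1.15 against 0.12 on SP and 0.57 against 0.28 on HP, and Nupr1 1.16 against 0.28 and 0.44 against 0.32. These low values are TPM as deposited, without scaling. Insulin and carbohydrate genes went both ways. Pck1 (1.44, adjusted p = 0.00433) and G6pc (0.99, adjusted p = 0.00334) of glucose production and Irs2 of insulin signalling (0.69, adjusted p = 0.0185) were higher. Txnip, a glucose-responsive inhibitor of thioredoxin (-0.64, adjusted p = 0.0151), and the lipogenic Thrsp (-0.67, adjusted p = 0.0499) were lower.

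**Figure D4:**
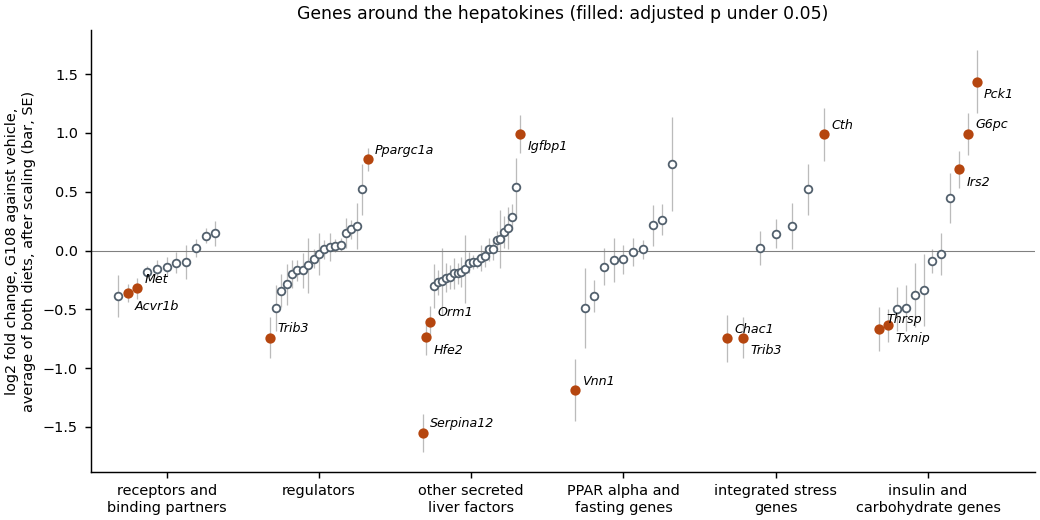
Points are genes of the 6 lists (horizontal axis), each placed by its scaled log2 fold change of G108 against vehicle averaged over the diets (vertical axis, bars are SE). Filled and named genes passed the test, and the secreted Serpina12 and the glucose production gene Pck1 lie farthest from 0.

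Across the 16 libraries, on scaled log2 values, Fst and Angptl4 ran opposite to each other (r = -0.91, and -0.75 once group means were removed). Fetub and Lect2 ran together (r = 0.74, and 0.67 within groups), Fetub and Ahsg opposite (-0.52 and -0.59), and Fgf21 with Gdf15 (0.50 and 0.52). Vehicle SP 4 held both the lowest scaled Ahsg (811) and the highest scaled Fetub (300), and r was not computed without it. All these points share libraries and scaling factors, so r is given as a description. The genes most like Fst were Flt3l (0.96), Gm43314 (0.94) and Ccnd3 (0.92), and those most like Angptl4 were Cyp2d9 (0.95), Gm28513 (0.93) and Sucnr1 (0.92). Fetub was most like Mrs2, 1810058I24Rik and Cyp2d37-ps (0.94 each), Ahsg like Laptm4a (0.98), Iyd and Gch1 (0.97 each) and Lect2 like Cox16 (0.90), Mrpl57 and Bnip1 (0.89 each). Fgf21 was most like Sars (0.79), Pcbp2 and Vegfb (0.78 each), Gdf15 like Fn3k (0.83), Grpel2 (0.81) and Cnppd1 (0.78), and Inhbe like Gm13554, Nup214 (0.77 each) and Arv1 (0.76). The closest to Angptl8 were an unnamed gene (0.83), Gm21541 and Mir7051 (0.82 each).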

How the data were processed

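Liver RNA of 16 mice was sequenced, 1 library per mouse. By the study's methods and the submitters' notes, the authors checked reads with FastQC 0.11.8, aligned them to GRCm38 with HISAT2 2.0.5, used featureCounts to count reads and deposited one TPM value per gene and library. Groups followed the sample records. Symbols, exons and coordinates came from GENCODE for GRCm38 (55141 of 55487 identifiers matched). Reads per library were recovered from the steps of low TPM values (98.8% of 138863 within 0.02 of a whole read).

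Genes whose mean TPM reached 1 (11839) were fitted as log2(TPM + 1) by limma 3.58.1 (R 4.3.3) with a mean per group and an intensity trend, using all 16 libraries, and Benjamini-Hochberg adjustment over all genes tested. An adjusted p under 0.05 was a call. Mice were kept 1 to a cage by the study's methods and litters are not given in the sources used here, so p-values measure the spread between these mice. The model was tested on simulated data. Alternatives were a pseudocount of 0.1, no filter, a filter at a mean of 5 TPM, scaling by the median of ratios, TPM rescaled without mitochondrial and Mup genes, array quality weights, a replicate block by mouse number, fits of the compared groups alone, limma's voom on recovered reads (11798 genes) and each library left out. Leaving out libraries with median-of-ratios scaling was added after the data were examined.

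The 9 hepatokines, the lists and the tests were chosen with earlier results of these data known. Named genes were all 9 members, up to 4 of each list (called first, then the largest change averaged over the diets; after their values were seen, further called genes of the insulin and carbohydrate list, Klb, Atf4 and Ppara were added) and the 3 genes most correlated with each member. The counts of the insulin and carbohydrate list and 1 gene are not reported here. Figures were drawn with matplotlib 3.10.9 in Python 3.11.15. The mouse numbers were not used as pairs in the main test, and the correlations of same-numbered mice are given below.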

Additional observations from a re-analysis of the deposited data

Results flagged for a closer look

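In 4 of the 36 sets of 4 libraries examined (9 transcripts in 4 groups), 1 mouse lay far from the other 3 by Dixon's criterion, where chance gives about 1 in 20. Fgf21 in G108 SP 3 was 7.76 TPM, against 3.58 to 3.90 in the other 3 mice. Gdf15 in G108 HP 2 was 12.9 TPM, against 3.45 to 4.35. Inhbe in G108 SP 4 was 19.2 TPM, against 13.6 to 14.4, and Fetub in vehicle SP 1 was 162 TPM, against 199 to 205.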

How the results depend on the processing

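Of the 9 hepatokines, 6 were called for G108 on SP in TPM. The count was 3 with a mean TPM of at least 5, and 0 with median-of-ratios scaling, with that scaling and the replicate block, with TPM rescaled without mitochondrial and Mup genes, and with voom. Averaged over the diets, 6 became 3 in each of those settings and with the replicate block alone, but of different genes. They were Fst (higher), Angptl4 and Fetub (lower) with scaling, scaling and block, TPM rescaled and voom, then Ahsg, Inhbe and Lect2 with a mean TPM of at least 5, where Fgf21, Fst and Gdf15 were not tested, and Fgf21, Fst and Lect2 with the block alone. The count was 2 without a filter, and 2 to 6 with each library left out (2 without G108 HP 4, G108 SP 3, vehicle HP 3 or vehicle HP 4, and 3 without G108 HP 1, G108 HP 2, G108 SP 2, G108 SP 4, vehicle SP 1 or vehicle SP 3). Array quality weights gave 3 calls on HP, 5 for HP against SP with G108 and 3 for the interaction, where the main test gave 0 and where the weights called 17.96%, 71.8% and 61.4% of all genes. With each library left out these counts ranged from 0 to 1 (1 without G108 SP 1), 0 to 5 (5 without G108 HP 4) and 0 to 2 (2 without G108 HP 4 or vehicle SP 2). Without G108 HP 4, 42.6% of all genes were called for HP against SP with G108 and 43.9% for the interaction, and without vehicle SP 2 29.3% for the interaction. The scaled count on SP ranged from 0 to 3, with Angptl4, Fst and Fetub called without G108 SP 1 and Angptl4 without G108 HP 3. The cause of these changes was not tested. The direction of called values turned for Lect2 on SP (-0.25 with scaling, -0.25 with scaling and block, -0.18 with TPM rescaled, -0.25 with voom), Lect2 on average (-0.14, -0.14, -0.15 and -0.14) and Inhbe on average (-0.0196, -0.0196, -0.0267 and -0.0207). With scaling and a library left out together, Inhbe on SP fell to as low as -0.12 (without vehicle SP 1) and Ahsg on average to -0.04 (without vehicle SP 4). In the 54 comparisons of a hepatokine, 98 values lost and 38 gained a call among 2232. Deviations of same-numbered mice from their group means correlated from -0.58 to 0.53, over 0.1 in 8 of 24 pairs. Because these correlations had both signs, they cannot show or exclude a shared origin of same-numbered mice. The sources used here give no such origin. For Fgf21 and Fst, the transcripts with the fewest reads, counting error (SD of log2 0.21 and 0.14) was below the spread between mice (0.92 and 0.61).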
